A study of Mus musculus with 8 samples.

Results

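The 10 genes described here make the pigment machinery of melanocytes, the pigment cells of skin and hair. They were taken by name, although with earlier results of these data known. Every probe on the array was used whose accession maps to Tyr, Tyrp1, Dct, Pmel, Mlana, Mc1r, Gpr143, Oca2, Slc45a2 or Slc24a5. All 10 of the 10 genes were found, among 21095 genes named on the array, with 12 probes (2 each for Tyr and Dct). Their levels were measured in whole skin of female FVB/N mice, an albino strain, 24 h after topical DMBA (7,12-dimethylbenz(a)anthracene, a carcinogen that starts skin tumours) or after acetone, its solvent. The groups were DMBA-treated CD109-/- skin, DMBA-treated CD109+/+ skin, CD109-/- skin with acetone and CD109+/+ skin with acetone, with 2 arrays each and 8 arrays in all. CD109-/- mice lack the gene for CD109, a glycoprotein of the cell surface, in all their cells and had been backcrossed to FVB/N, whereas the CD109+/+ mice were FVB/N mice that were purchased. The titles call the acetone samples DMBA-untreated, and the age of the mice and whether each array held the RNA of a separate mouse are not given in the labels, so p-values here measure only the spread between these samples. The arrays asked whether the deletion, the carcinogen or both together changed the level of a gene in skin.

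Melanin is made in melanosomes, organelles that melanocytes fill with pigment and hand to keratinocytes. In the hair follicle, the melanocytes of the bulb work while a hair grows and cease in the resting follicle. Which cells the transcripts came from was not measured here. Tyrosinase (Tyr) catalyses the first step of melanin synthesis, and its relatives Tyrp1 and Dct act further on. Pmel builds the fibrils on which melanin is laid down, and Mlana is a small membrane protein of the early melanosome. Mc1r is the receptor for alpha-MSH and agouti, and Gpr143 is a receptor of the melanosome membrane. Oca2, Slc45a2 and Slc24a5 are transporters that set the ion balance and the pH of the melanosome. FVB/N mice carry an inactive Tyr enzyme, which leaves them unpigmented while their melanocytes remain. The transcription factor MITF binds a short motif, the E-box CATGTG, and the longer M-box around it in promoters of several of these genes.

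The promoters of the 3 enzyme genes are shown because they hold the M-box core, and that of Mc1r because it holds E-boxes on both strands, features that had no part in the choice of the genes. The windows are the 250 bases before the transcript start in RefSeq sequence of the build GRCm38.p6, 5′ to 3′ on the strand of the gene, with the E-box and any adjoining M-box bases in capitals, on either strand (CACATG is CATGTG read on the other strand). The starts are those of the promoter table, and those of Tyrp1 and Oca2 lie inside the span that the same annotation gives the gene. The windows were chr7:87493513-87493762 for Tyr (minus strand), chr4:80833963-80834212 for Tyrp1 (plus strand), chr14:118052247-118052496 for Dct (minus strand) and chr8:123406832-123407081 for Mc1r (plus strand).
Tyr: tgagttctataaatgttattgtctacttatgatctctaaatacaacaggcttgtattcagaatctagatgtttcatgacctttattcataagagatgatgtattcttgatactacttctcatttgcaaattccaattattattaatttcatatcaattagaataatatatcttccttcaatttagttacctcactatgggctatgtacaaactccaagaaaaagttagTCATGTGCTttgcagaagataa
Tyrp1: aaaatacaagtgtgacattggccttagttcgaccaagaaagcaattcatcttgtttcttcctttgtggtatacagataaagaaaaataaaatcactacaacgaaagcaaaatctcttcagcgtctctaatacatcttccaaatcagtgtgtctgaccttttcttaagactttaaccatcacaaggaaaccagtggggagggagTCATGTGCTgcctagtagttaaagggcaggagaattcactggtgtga
Dct: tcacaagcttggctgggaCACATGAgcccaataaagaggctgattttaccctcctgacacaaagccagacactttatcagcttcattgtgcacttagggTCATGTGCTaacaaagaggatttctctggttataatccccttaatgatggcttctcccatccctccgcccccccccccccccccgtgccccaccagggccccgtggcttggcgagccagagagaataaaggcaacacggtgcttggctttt
Mc1r: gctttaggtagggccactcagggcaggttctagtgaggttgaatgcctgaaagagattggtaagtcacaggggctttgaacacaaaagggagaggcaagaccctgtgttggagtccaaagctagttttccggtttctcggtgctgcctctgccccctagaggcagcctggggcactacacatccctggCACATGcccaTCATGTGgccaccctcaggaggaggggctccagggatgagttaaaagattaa
A promoter window was at hand for 6 of the 10 genes (Tyr, Tyrp1, Dct, Mc1r, Oca2 and Slc24a5). The motif CATGTG, searched on both strands, was in 6 of 6 of them, against 12.252% of 32851 promoter windows of the same length. TCATGTG, which contains it, was in 5 of 6, Oca2 being the exception, against 3.251% of all windows. TCATGTGCT, the M-box core that contains both, was in 3 of 6, namely Tyr, Tyrp1 and Dct, against 0.335%. The other E-box, CACGTG, was in 0 of 6, against 6.021%. Positions given here are those of the match to CATGTG. The match began 21 bases before the start in Tyr, 46 in Tyrp1, and 150 in Dct, which had another E-box on the opposite strand 232 bases before its start. In Mc1r, a pair of matches on opposite strands began 62 and 51 bases before the start. In Slc24a5 the match began 13 bases before the start and in Oca2 186 bases before it. A match is a description of the sequence and was not tested for binding.

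All 8 arrays shared 1 slide and 1 scan day. Row 1 of the slide held the DMBA arrays and row 2 the acetone arrays, so that an effect of treatment and an effect of the row cannot be told apart. Columns 1 and 2 held the arrays labelled CD109+/+, and columns 3 and 4 those labelled CD109-/-. An effect of the labelled genotype and an effect of the column thus cannot be told apart either. Of the probes, 62.4% to 66.0% were well above background on each array, which is the scanner software's own call, and 0 spots were saturated. Levels are log2 signals, that is log2 of the background-subtracted intensity minus log2 of the array's 75th percentile, which was an intensity of 382 to 626. Krt5 and Lor, markers of epidermis, were at log2 signals of 7.54 to 8.17 and 6.95 to 8.37 over the 8 arrays.

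Cd109 (chr9:78615546-78716260), the deleted gene, went against 2 labels, and all results depend on this. Its log2 signal was −8.06 and −7.70 in DMBA-treated CD109-/- skin, against 0.84 and 1.42 in DMBA-treated CD109+/+ skin. Of the acetone arrays, those labelled CD109-/- had 1.66 (replicate 1) and −8.11 (replicate 2), against 2.06 (replicate 1) and −6.49 (replicate 2) for those labelled CD109+/+. Cd109 was thus well above background on the array labelled CD109-/- acetone replicate 1 and not on the array labelled CD109+/+ acetone replicate 2, and these are called the 2 arrays in doubt. Where the probe lies relative to the deleted part is not known here. No array was moved to another group. Each comparison is given for all 8 arrays as labelled and for the 6 arrays without the 2 in doubt, where the acetone groups have 1 array each. In the 6-array fit, the spread comes from the 4 DMBA arrays alone, and the lone acetone arrays are assumed to vary like them. In DMBA-treated CD109-/- skin, Cd109 lay at least 117-fold below DMBA-treated CD109+/+ skin, a bound set by the lowest signal that was well above background (adjusted p = 0.201 from limma with 8 arrays).

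The 10 pigmentation genes were high on the same 4 arrays and low on the other 4. The high arrays were both arrays of DMBA-treated CD109-/- skin and the arrays labelled replicate 2 of CD109-/- and of CD109+/+ with acetone. These were also the 4 arrays on which Cd109 was not well above background. No gene of the 10 had a high array below a low one, and the gap between the fourth and the fifth array in rank ran from 2.27 for Tyr to 5.18 for Gpr143 on the log2 scale. Over all 8 arrays, each gene's Pearson correlation with the mean of the other 9 was 0.982 to 0.999, a description in which 2 well-separated sets of arrays carry the value. Since whole skin was measured, fewer melanocytes and less RNA per melanocyte cannot be told apart.

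**Figure D1:**
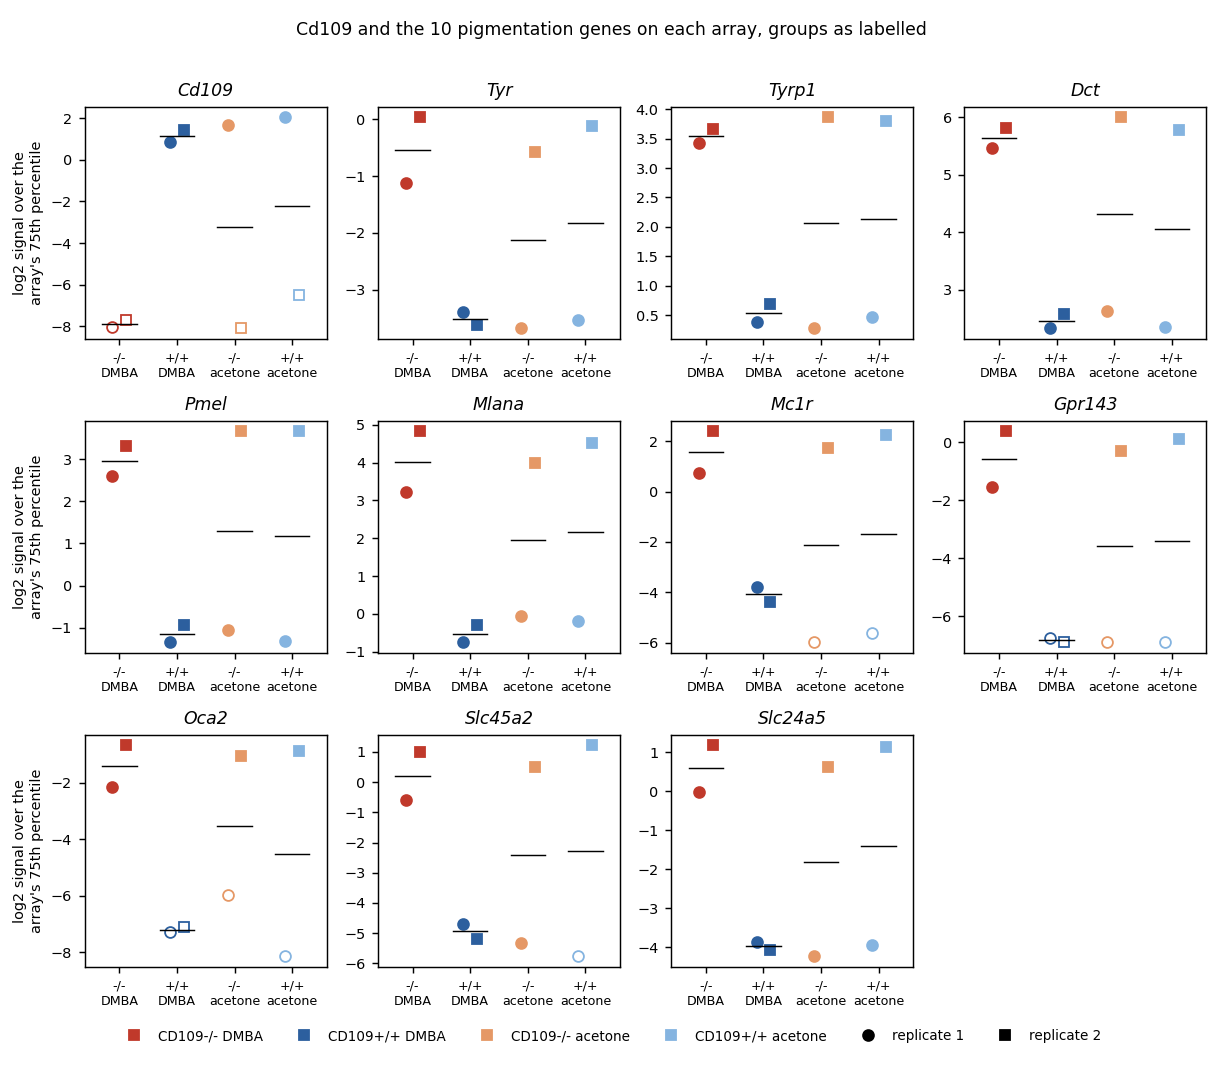
Log2 signal over the array's 75th percentile (vertical axes, which differ between panels) of Cd109 and the 10 pigmentation genes on each array, by group as labelled. Circles are replicate 1, squares replicate 2, open symbols were not well above background, and lines are means of 2 arrays. Cd109 is low on the 4 arrays where the 10 pigmentation genes are high.

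Among the enzymes, Tyr (chr7:87424771-87493512) had log2 signals of −1.12 and 0.04 in DMBA-treated CD109-/- skin, against −3.39 and −3.63 in DMBA-treated CD109+/+ skin. With acetone it was −3.68 and −0.57 on the CD109-/- arrays, against −3.53 and −0.12 on the CD109+/+ arrays. The groups did not overlap after DMBA and overlapped with acetone. After DMBA, the Tyr level of CD109-/- skin was 7.83-fold that of CD109+/+ skin, a log2 difference of 2.97 (SE 1.40, adjusted p = 0.234 from limma). Its second probe, not well above background on the 4 low arrays, was at −4.87 and −3.74 in DMBA-treated CD109-/- skin, against −7.74 and −7.21 in DMBA-treated CD109+/+ skin. It ran in the same direction as the first, but passed the filter on dim probes only through DMBA-treated CD109-/- skin. Its direction thus adds no evidence of a difference. Tyrp1 (chr4:80834123-80851736), which stabilises tyrosinase and takes part in making eumelanin, was at 3.43 and 3.66 in DMBA-treated CD109-/- skin, against 0.38 and 0.69 in DMBA-treated CD109+/+ skin. It was at 0.27 and 3.87 on the CD109-/- acetone arrays, against 0.46 and 3.80 on the CD109+/+ acetone arrays. The log2 difference between genotypes after DMBA was 3.01 (SE 1.44, adjusted p = 0.239). Dct (chr14:118012790-118052246), dopachrome tautomerase and an early marker of the lineage, was at 5.47 and 5.82 in DMBA-treated CD109-/- skin, against 2.32 and 2.57 in DMBA-treated CD109+/+ skin. It was at 2.63 and 6.0 on the CD109-/- acetone arrays, against 2.35 and 5.77 on the CD109+/+ acetone arrays. The log2 difference after DMBA was 3.20 (SE 1.41, adjusted p = 0.215), and the second Dct probe gave 4.45 and 4.79 in CD109-/- skin, against 1.29 and 1.57 in CD109+/+ skin. The 3 enzyme genes spanned 3.59 to 3.72 on the log2 scale between their lowest and highest arrays.

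Of the melanosome proteins, Pmel (chr10:128695888-128720238) had log2 signals of 2.60 and 3.31 in DMBA-treated CD109-/- skin, against −1.35 and −0.94 in DMBA-treated CD109+/+ skin. With acetone it was −1.06 and 3.67 on the CD109-/- arrays, against −1.32 and 3.67 on the CD109+/+ arrays. Its log2 difference between genotypes after DMBA was 4.11 (SE 2.02, adjusted p = 0.248 from limma), which is 17.2-fold. Mlana (chr19:29697541-29708447) was at 3.21 and 4.84 in DMBA-treated CD109-/- skin, against −0.76 and −0.29 in DMBA-treated CD109+/+ skin. It was at −0.06 and 3.99 on the CD109-/- acetone arrays, against −0.18 and 4.53 on the CD109+/+ acetone arrays. Its difference after DMBA was 4.55 (SE 1.88, adjusted p = 0.196), or 23.4-fold. Both genes were well above background on all 8 arrays, so that transcripts were measured on the low arrays too.

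Of the receptors, Mc1r (chr8:123407082-123410744) was well above background on 6 of 8 arrays. It was at 0.75 and 2.41 in DMBA-treated CD109-/- skin, against −3.78 and −4.40 in DMBA-treated CD109+/+ skin. With acetone it was −6.0 and 1.74 on the CD109-/- arrays, against −5.62 and 2.23 on the CD109+/+ arrays, and replicate 1 of both was not well above background. The difference between genotypes after DMBA was 5.67 on the log2 scale (SE 3.26, adjusted p = 0.30 from limma), or 50.8-fold. Gpr143 (chrX:152781921-152808651) was well above background only on the 4 high arrays. It was at −1.56 and 0.38 in DMBA-treated CD109-/- skin, against −6.74 and −6.90 in DMBA-treated CD109+/+ skin, and at −6.87 and −0.31 on the CD109-/- acetone arrays, against −6.91 and 0.12 on the CD109+/+ acetone arrays. It was at least 53.8-fold higher in CD109-/- skin after DMBA (adjusted p = 0.227).

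Of the transporters, Oca2 (chr7:56239593-56536518) was likewise well above background only on the 4 high arrays. It was at −2.15 and −0.68 in DMBA-treated CD109-/- skin, against −7.30 and −7.12 in DMBA-treated CD109+/+ skin, which made it at least 30.4-fold higher (adjusted p = 0.219 from limma). On the acetone arrays it was at −5.98 and −1.07 in CD109-/- skin, against −8.15 and −0.87 in CD109+/+ skin. Oca2 and Gpr143 passed the filter on dim probes only through DMBA-treated CD109-/- skin, the group where they were high, so their passing is no evidence of a difference. Slc45a2 (chr15:11000721-11029233) was at −0.60 and 1.01 in DMBA-treated CD109-/- skin, against −4.69 and −5.18 in DMBA-treated CD109+/+ skin. With acetone it was −5.34 and 0.51 on the CD109-/- arrays, against −5.77 and 1.23 on the CD109+/+ arrays, and the lowest of these was not well above background. Its difference after DMBA was 5.14 (SE 2.71, adjusted p = 0.27), or 35.3-fold. Slc24a5 (chr2:125068127-125088677) was at −0.01 and 1.19 in DMBA-treated CD109-/- skin, against −3.88 and −4.07 in DMBA-treated CD109+/+ skin. It was at −4.24 and 0.64 on the CD109-/- acetone arrays, against −3.94 and 1.14 on the CD109+/+ acetone arrays. Its difference after DMBA was 4.57 (SE 2.09, adjusted p = 0.225), or 23.7-fold.

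Between the genotypes after DMBA, all 10 genes were higher in CD109-/- skin in 4 of 4 array pairs, with a median log2 difference of 4.56 over the 10 genes against 0.12 over all 36917 probes tested. Both CD109-/- arrays lay above both CD109+/+ arrays for 10 of 10 genes and for 41.7% of all probes tested. With 8 arrays, limma called 0 of the 10 genes at an adjusted p under 0.05, against 0.0813% of all probes, and 0 of 10 had an unadjusted p under 0.05, against 26.1% of all probes. The arrays of the acetone groups enter that spread, and there the 2 arrays of each label differed by 3.11 to 7.85 for the 10 genes. With 6 arrays the differences stayed the same by construction, their SE was 0.20 to 0.71, and 10 of 10 genes had an unadjusted p under 0.05, against 31.9% of all probes. The adjusted p then lay between 0.0772 and 0.0836 and 0 of 10 were called, with 0% of 38356 probes called. The Student's t-test that the study's methods name, on the 4 DMBA arrays alone, gave 10 of 10 at an unadjusted p under 0.05, against 18.9% of all probes, and 0 of 10 after adjustment.

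Between the genotypes with acetone, the outcome turned on the 2 arrays in doubt. As labelled, the log2 differences of the 10 genes ran from −0.43 to 0.98, with a median of −0.17 against −0.02 over all probes, and the groups overlapped for 10 of 10 genes. limma called 0 of 10, against 0.00542% of all probes, and 0 of 10 had an unadjusted p under 0.05, against 2.15% of all probes. Of Mc1r, Gpr143 and Oca2, 1 array of 2 in either group was well above background, and of Slc45a2 1 of 2 in CD109+/+ skin. Without the 2 arrays in doubt, the remaining CD109-/- array lay above the remaining CD109+/+ array for 10 of 10 genes, by 2.96 (Tyr) to 7.36 (Mc1r) on the log2 scale and a median of 4.78, against −0.03 over all probes. The array of CD109-/- skin was at least 165-fold higher for Mc1r, at least 77.8-fold for Slc45a2, at least 47.8-fold for Gpr143 and at least 28.1-fold for Oca2. Their adjusted p ranged from 0.0748 to 0.203 over the 10 genes, 10 of 10 had an unadjusted p under 0.05, against 13.7% of all probes, and 0 of 10 were called, with 0% of all probes called.

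Whether DMBA moved the pigmentation genes was asked within each genotype, and those comparisons share the arrays already described. In CD109-/- skin, the log2 difference of DMBA over acetone was 1.33 to 3.70 as labelled (adjusted p = 0.585 to 0.692 from limma). Without the 2 arrays in doubt it was −0.71 (Pmel) to 0.04 (Mlana), with an adjusted p of 0.642 to 0.994. In CD109+/+ skin it was −3.43 to −1.60 as labelled (adjusted p = 0.647 to 0.826) and −0.34 (Mlana) to 1.53 (Mc1r) without those arrays (adjusted p = 0.503 to 0.993). limma called 0 of 10 genes in each of these fits, with 0 at an unadjusted p under 0.05. The shares of all probes called were 0% in CD109-/- skin with 8 and with 6 arrays, and 0.179% and 0.441% in CD109+/+ skin. At an unadjusted p under 0.05 they were 14.6% and 10.9% in CD109-/- skin, and 11.4% and 13.5% in CD109+/+ skin. The difference between the DMBA effects in CD109-/- and CD109+/+ skin was 2.95 to 6.43 with 8 arrays (adjusted p = 0.408 to 0.515) and −1.70 to 0.38 with 6 arrays (adjusted p = 0.563 to 0.997). It was called for 0 of 10 genes and for 0% of all probes in either fit. Again 0 of 10 genes had an unadjusted p under 0.05, against 15.9% of all probes with 8 arrays and 13.5% with 6.

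A fit added after seeing the data put genotype and treatment in as separate terms over the 6 arrays, which sets 3 CD109-/- arrays against 3 CD109+/+ arrays. It called 7 of the 10 genes higher in CD109-/- skin, against 0.321% of all 38356 probes, 107 of them higher and 16 lower. The genes were Tyrp1, with a log2 difference of 3.14 (SE 0.18, adjusted p = 0.0338), Dct with 3.35 (SE 0.19, adjusted p = 0.0338), Pmel with 4.40 (SE 0.31, adjusted p = 0.0379), Slc24a5 with 4.57 (SE 0.34, adjusted p = 0.0383), Slc45a2 with 5.52 (SE 0.52, adjusted p = 0.0488), Oca2, at least 29.6-fold higher (adjusted p = 0.0393), and Gpr143, at least 51.7-fold higher (adjusted p = 0.0431). Oca2 and Gpr143 were not well above background on any of the 3 CD109+/+ arrays and passed the filter only through CD109-/- skin, and Slc45a2 was on 2 of them. Mc1r, Mlana and Tyr had differences of 6.23, 4.42 and 2.96, with adjusted p = 0.0502, 0.058 and 0.064. The same model over all 8 arrays gave differences of 1.33 to 3.39 with an adjusted p of 0.663 to 0.706, and called 0 of 10 genes and 0% of all probes. The call therefore rests on leaving out arrays that were picked by their Cd109 signal, and at most 2 of the 10 genes were called when any further array was left out.

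**Figure D2:**
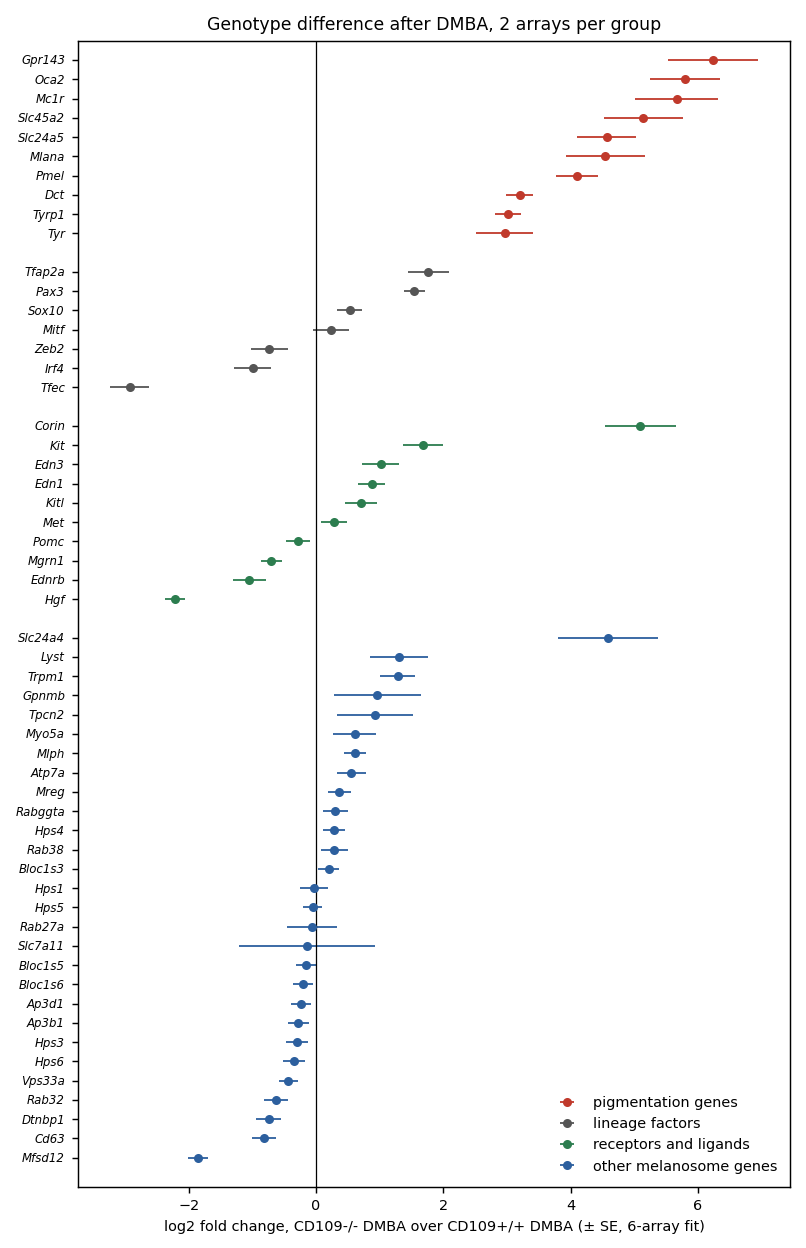
Log2 fold change of CD109-/- over CD109+/+ skin after DMBA (horizontal axis) with its SE from the 6-array fit, for the 10 pigmentation genes and the tested genes of 3 further melanocyte lists. The pigmentation genes lie between 2.97 and 6.24, while the medians of the lineage factors and of the other melanosome genes are 0.23 and −0.05. Gpr143, Oca2, Corin and Slc24a4 were not well above background in DMBA-treated CD109+/+ skin, nor Mfsd12 in DMBA-treated CD109-/- skin, so that their points rest on signals at background.

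Genes upstream and around the pigment machinery were compared with it by lists that were chosen with earlier results of these data known. Of the transcription factors of the melanocyte lineage, 7 of 7 were tested. Their median log2 difference between genotypes after DMBA was 0.23, ranging from −2.93 (Tfec) to 1.76 (Tfap2a), and 0 were called (limma, with 4 of 7 at an unadjusted p under 0.05, against 26.1% of all probes). Mitf, the master regulator of the lineage, was at 2.50 and 3.15 in DMBA-treated CD109-/- skin, against 2.71 and 2.47 in DMBA-treated CD109+/+ skin. On the acetone arrays it was at 3.39 and 3.31 in CD109-/- skin, against 2.99 and 3.41 in CD109+/+ skin. The Mitf groups overlapped after DMBA, where the difference was 0.23 (SE 0.27, adjusted p = 0.595). Mitf is also transcribed in other cells, mast cells among them. Tfap2a, which is used in keratinocytes as well, was at 3.0 and 3.78 in DMBA-treated CD109-/- skin, against 1.51 and 1.75 in DMBA-treated CD109+/+ skin (adjusted p = 0.142). It was at 1.98 and 3.27 on the CD109-/- acetone arrays, against 2.16 and 3.38 on the CD109+/+ acetone arrays. Sox10 and Pax3 were looked at after their values were seen, since few other skin cells use them besides melanocytes and glia. Sox10 was at −0.82 and −0.50 in DMBA-treated CD109-/- skin, against −1.25 and −1.13 in DMBA-treated CD109+/+ skin, a difference of 0.53 (SE 0.17, adjusted p = 0.139). With acetone it was −0.67 and −0.61 on the CD109-/- arrays, against −0.45 and −0.44 on the CD109+/+ arrays. Sox10 thus did not set apart the arrays where the pigmentation genes were high. Pax3 was at −1.01 and −0.91 in DMBA-treated CD109-/- skin, against −2.60 and −2.41 in DMBA-treated CD109+/+ skin, a difference of 1.54 (SE 0.39, adjusted p = 0.107). It was at −2.05 and −1.27 on the CD109-/- acetone arrays, against −2.12 and −1.17 on the CD109+/+ acetone arrays. Tfap2a and Pax3 were thus high on the same 4 arrays as the pigmentation genes, by less, and Irf4, a factor that acts with MITF on Tyr, was low on those 4. Irf4 was at −0.24 and −0.93 in DMBA-treated CD109-/- skin, against 0.47 and 0.35 in DMBA-treated CD109+/+ skin, and at 0.91 and −0.93 on the CD109-/- acetone arrays, against 0.29 and −1.64 on the CD109+/+ acetone arrays.

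Of the receptors and ligands that guide melanocytes, 10 of 12 genes were tested, with a median difference of 0.49 after DMBA and 0 called (5 of 10 at an unadjusted p under 0.05, against the same 26.1%). Ednrb, the endothelin receptor of melanoblasts, was at 0.55 and 0.31 in DMBA-treated CD109-/- skin, against 1.76 and 1.21 in DMBA-treated CD109+/+ skin (log2 difference −1.05, SE 0.23, adjusted p = 0.10). Mgrn1, a ubiquitin ligase that dampens melanocortin receptors, differed by −0.70 (SE 0.22, adjusted p = 0.129). Kit, the receptor for stem cell factor, was chosen after its values were seen and was at 0.54 and 1.26 in DMBA-treated CD109-/- skin, against −0.93 and −0.64 in DMBA-treated CD109+/+ skin (log2 difference 1.68, SE 0.46, adjusted p = 0.113). With acetone it was −0.15 and 0.70 on the CD109-/- arrays, against −0.15 and 0.83 on the CD109+/+ arrays. Kit was thus high on the same arrays as the pigmentation genes, by less. Hgf, a growth factor for melanocytes and keratinocytes, was the 1 gene of the list called in a comparison of the design. It rose with DMBA in CD109+/+ skin by 2.84 on the log2 scale (SE 0.21, adjusted p = 0.0239), with −1.65 and −1.80 in DMBA-treated skin, against −4.71 and −4.42 in acetone-treated CD109+/+ skin. Without the 2 arrays in doubt that difference was 2.98 (adjusted p = 0.0412). Corin, a protease of the dermal papilla that acts in the agouti pathway, was at −3.45 and −1.96 in DMBA-treated CD109-/- skin, against −7.66 and −7.94 in DMBA-treated CD109+/+ skin. With acetone it was −7.10 and −2.11 on the CD109-/- arrays, against −7.49 and −1.87 on the CD109+/+ arrays. Corin, too, was high on the arrays where the pigmentation genes were high. It was not well above background in CD109+/+ skin on the arrays of the 6-array fits, passed the filter only through CD109-/- skin, and was called in the added 6-array fit of genotype as at least 12.8-fold higher in CD109-/- skin (adjusted p = 0.0417). That call likewise rests on leaving out arrays that were picked by their Cd109 signal.

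Among 28 of 28 tested genes for the formation, transport and ion balance of melanosomes and related organelles, the median difference after DMBA was −0.05, with 13 above 0, 15 below 0 and 0 called (7 of 28 at an unadjusted p under 0.05, a share near that of all probes). Most of these genes are used in many cell types. Cd63, a tetraspanin of endosomes, differed by −0.82 (SE 0.20, adjusted p = 0.104) and Dtnbp1, a subunit of the BLOC-1 complex, by −0.74 (SE 0.26, adjusted p = 0.15). The differences ran from −1.86 for Mfsd12, which was not well above background in DMBA-treated CD109-/- skin, to 4.59 for Slc24a4, which was not in DMBA-treated CD109+/+ skin. Slc24a4, an ion exchanger related to Slc24a5, was at −3.16 and −1.18 in DMBA-treated CD109-/- skin, against −7.20 and −6.31 in DMBA-treated CD109+/+ skin. It was at least 17.5-fold higher (adjusted p = 0.173). Trpm1, a channel that melanocytes transcribe under MITF, had 3 probes that disagreed in size, and was looked at after its values were seen. A probe for another RefSeq transcript than that of the brightest was at 0.90 and 3.19 in DMBA-treated CD109-/- skin, against −5.44 and −4.78 in DMBA-treated CD109+/+ skin. On the acetone arrays it was at −3.97 and 2.85 in CD109-/- skin, against −4.10 and 3.18 in CD109+/+ skin, so it was high on the same 4 arrays as the pigmentation genes. The brightest Trpm1 probe was at 2.57 and 3.19 in DMBA-treated CD109-/- skin, against 1.68 and 1.52 in DMBA-treated CD109+/+ skin, and at 1.33 and 1.03 on the CD109-/- acetone arrays, against 1.83 and 1.08 on the CD109+/+ acetone arrays. It did not set the same 4 arrays apart.

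Genes of the growing hair follicle moved with the pigmentation genes, and their part in the result was not tested. Averaged over 11 hair shaft keratins, the log2 signal was 0.74 and 5.47 in DMBA-treated CD109-/- skin, against −5.01 and −4.90 in DMBA-treated CD109+/+ skin. It was −4.58 and 2.92 on the CD109-/- acetone arrays, against −4.36 and 4.51 on the CD109+/+ acetone arrays. That of 9 inner root sheath genes, which form the sleeve around the growing hair, was 3.04 and 5.30 in DMBA-treated CD109-/- skin, against −3.97 and −4.17 in DMBA-treated CD109+/+ skin. It was −3.51 and 4.60 on the CD109-/- acetone arrays, against −3.35 and 5.12 on the CD109+/+ acetone arrays. That of 6 hair matrix genes was 0.95 and 2.35 in DMBA-treated CD109-/- skin, against −2.64 and −2.53 in DMBA-treated CD109+/+ skin. It was −2.22 and 1.90 on the CD109-/- acetone arrays, against −2.04 and 2.15 on the CD109+/+ acetone arrays. The 10 pigmentation genes averaged 1.00 and 2.20 in DMBA-treated CD109-/- skin, against −2.92 and −2.93 in DMBA-treated CD109+/+ skin, and −3.03 and 1.85 on the CD109-/- acetone arrays, against −3.26 and 2.15 on the CD109+/+ acetone arrays. All 3 follicle lists were thus high on the 4 arrays where the pigmentation genes were high. After DMBA, 11 of 11, 9 of 9 and 6 of 6 tested genes of these lists had a positive difference between genotypes, with medians of 6.98, 8.01 and 4.79. Of these genes, 4, 2 and 1 were not well above background in DMBA-treated CD109+/+ skin. With 8 arrays they passed the filter on dim probes only through DMBA-treated CD109-/- skin, so their positive signs are no evidence of a difference. The medians include their signals at background. In limma, 0 were called with 8 arrays (2, 2 and 3 at an unadjusted p under 0.05, against 26.1% of all probes). In the added 6-array fit, 1 of 11, 6 of 9 and 2 of 6 were called higher, against 0.321% of all probes called in either direction. Of those called, Krt25 and Shh were not well above background on any CD109+/+ array of that fit. They passed the filter only through CD109-/- skin. The calls of that fit rest on leaving out arrays that were picked by their Cd109 signal, and the same model over all 8 arrays called 0% of all probes.

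**Figure D3:**
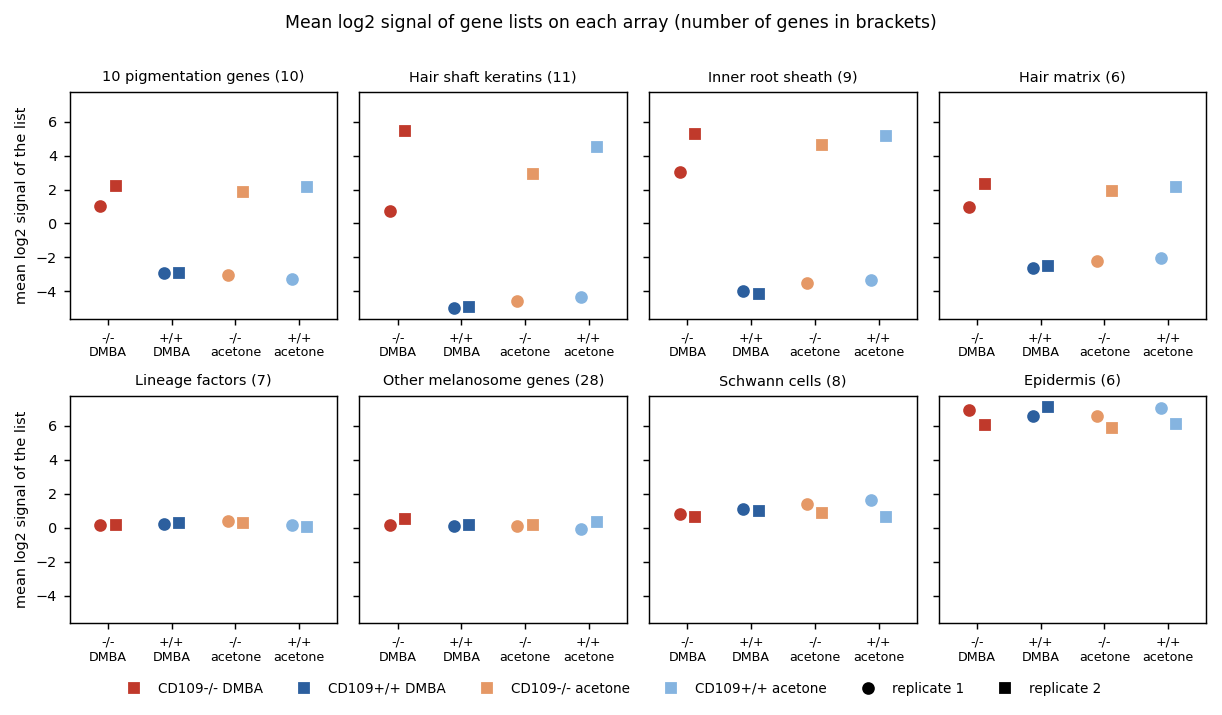
Mean log2 signal of 8 gene lists on each array (vertical axis, shared by all panels), by group as labelled, with the number of genes in brackets. Circles are replicate 1 and squares replicate 2. The 10 pigmentation genes and the 3 lists of the growing follicle split the arrays in the same way, while the mean of the lineage factors, whose members differ in direction, stays between 0.05 and 0.40.

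The replicates of DMBA-treated CD109-/- skin differed in the same direction for all 10 pigmentation genes, with replicate 2 above replicate 1 by 0.23 (Tyrp1) to 1.94 (Gpr143) on the log2 scale. The follicle lists stood in the same order, the hair shaft keratins with the widest gap. Krt35, a keratin of the early hair cortex, was at 5.86 and 7.73 in DMBA-treated CD109-/- skin, against −4.55 and −4.01 in DMBA-treated CD109+/+ skin. Krt81, a keratin of the hair cortex, was at 1.74 and 6.65 in DMBA-treated CD109-/- skin, against 1.07 and 1.25 in DMBA-treated CD109+/+ skin. Lef1, a Wnt effector of the hair matrix, was at 2.62 and 4.24 in DMBA-treated CD109-/- skin, against −1.58 and −1.38 in DMBA-treated CD109+/+ skin. Dlx3, a matrix factor that epidermis also uses, was at 2.69 and 3.50 in DMBA-treated CD109-/- skin, against 1.86 and 1.60 in DMBA-treated CD109+/+ skin.

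The genes whose pattern was most like the mean of the 10 pigmentation genes over the 8 arrays, among 16757 genes, were Tchh (Pearson r = 0.9991), Krt73 (0.9989), Cntfr (0.9988), Msx2 (0.9977) and Macroh2a2 (0.9972). Tchh (trichohyalin) and Krt73 are structural genes of the inner root sheath, Msx2 is a homeobox factor of the hair matrix, Cntfr is the receptor for ciliary neurotrophic factor, and Macroh2a2 is a histone variant. Tchh was at 5.87 and 8.39 in DMBA-treated CD109-/- skin, against −1.07 and −0.72 in DMBA-treated CD109+/+ skin. On the acetone arrays it was at −1.04 and 7.29 in CD109-/- skin, against −1.33 and 7.76 in CD109+/+ skin. Macroh2a2 was high on the same 4 arrays, within a range of 0.93 on the log2 scale, from 1.52 to 2.45. These correlations are a description over 8 arrays that fall into 2 sets.

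Lists of other cell types also moved with the pigmentation genes, by less, and in part the other way. Schwann cell genes, some of which melanocytes share, averaged 0.81 and 0.61 in DMBA-treated CD109-/- skin, against 1.1 and 0.96 in DMBA-treated CD109+/+ skin, and 1.39 and 0.86 on the CD109-/- acetone arrays, against 1.61 and 0.60 on the CD109+/+ acetone arrays. Of the 8 Schwann cell genes tested, 6 had a negative and 2 a positive difference between genotypes after DMBA. Pmp22, a myelin protein of Schwann cells, differed by −0.86 between CD109-/- and CD109+/+ skin after DMBA (SE 0.40, adjusted p = 0.23). The mast cell genes, of which 7 of 8 were tested and 7 of 7 had a negative difference after DMBA, averaged 0.31 and −0.20 in DMBA-treated CD109-/- skin, against 1.44 and 1.23 in DMBA-treated CD109+/+ skin. They averaged 0.55 and 0.02 on the CD109-/- acetone arrays, against 0.63 and 0.16 on the CD109+/+ acetone arrays. Hdc, the enzyme that makes histamine, was the 1 gene of that list called, and was lower in CD109-/- skin after DMBA by a log2 difference of −2.76 (SE 0.21, adjusted p = 0.036). It was not called with 6 arrays (adjusted p = 0.0772). Mcpt4, a mast cell protease, differed by −0.69 (SE 0.39, adjusted p = 0.296), and Cpa3, mast cell carboxypeptidase, by −1.25 (SE 0.43, adjusted p = 0.151).

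Skeletal muscle genes averaged 4.07 and 2.89 in DMBA-treated CD109-/- skin, against 5.40 and 5.04 in DMBA-treated CD109+/+ skin, and 5.81 and 4.55 on the CD109-/- acetone arrays, against 5.93 and 4.48 on the CD109+/+ acetone arrays. Adipocyte genes averaged 3.01 and 2.44 in DMBA-treated CD109-/- skin, against 3.97 and 3.87 in DMBA-treated CD109+/+ skin, and 4.71 and 3.35 on the CD109-/- acetone arrays, against 4.08 and 3.37 on the CD109+/+ acetone arrays. The means of the Schwann cell, mast cell, muscle and adipocyte lists were thus lower on each of the 4 arrays where the pigmentation genes were high than on any of the other 4. The proliferation list was higher on each of them, at 2.26 and 2.26 in DMBA-treated CD109-/- skin, against 1.81 and 1.89 in DMBA-treated CD109+/+ skin, and at 0.47 and 2.31 on the CD109-/- acetone arrays, against 0.74 and 2.17 on the CD109+/+ acetone arrays. Epidermis did not divide the arrays in this way, with means of 6.92 and 6.07 in DMBA-treated CD109-/- skin, against 6.57 and 7.13 in DMBA-treated CD109+/+ skin, and 5.90 to 7.05 with acetone. Nor did the mean of the bulge list, markers of follicle stem cells whose members differed in direction. That mean was 2.18 and 2.22 in DMBA-treated CD109-/- skin, against 1.44 and 1.87 in DMBA-treated CD109+/+ skin. It was 2.40 and 2.54 on the CD109-/- acetone arrays, against 2.56 and 2.44 on the CD109+/+ acetone arrays. Between the genotypes after DMBA, 5 bulge genes had a positive and 3 a negative log2 difference, from −1.52 to 2.76. After DMBA, limma called 0 genes of the muscle, adipocyte, proliferation, epidermis, bulge and Schwann cell lists. Of 7, 6, 8, 6, 8 and 8 genes tested, 2, 1, 0, 1, 3 and 1 had an unadjusted p under 0.05, against 26.1% of all probes. Between CD109-/- and CD109+/+ skin after DMBA, the log2 difference of the brightest genes of these lists was −0.84 for Acta1 and 0.24 for Myh1 (muscle actin and myosin), −0.64 for Cfd and −0.86 for Fabp4 (adipsin and a fatty acid binding protein of fat), −0.52 for Cd34 and 0.40 for Krt15 (bulge), and 0.23 for Birc5 and 1.13 for Mki67 (dividing cells), with an adjusted p of 0.229 (Fabp4) to 0.838 (Birc5). Of the 7 muscle genes, only Myh1 had a positive difference and 6 had a negative one, with a median of −1.30 and the lowest at −6.04. All 6 adipocyte genes had a negative difference and all 8 proliferation genes a positive one. The part of these cell types in the result was not tested.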

How the data were processed

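Total RNA of whole skin was labelled with 1 dye and hybridized to Agilent mouse arrays by the authors. The deposited intensity of a spot is on a linear scale, background-subtracted and detrended by Agilent Feature Extraction 11.5.1.1, and the arrays were not scaled to each other. Values in the deposited table are these intensities times 1 constant per array. Control spots (3671) and spots marked as outliers were left out, and spots of a probe were averaged, which kept 55458 of 55681 probes. Probes were named through RefSeq accessions (27922 of 29684 matched, 94.1%). Tests covered probes well above background on all arrays of at least 1 group (36917 probes with 8 arrays, 38356 with 6), and a gene was represented by its brightest tested probe.

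Log2 signals were fitted with limma 3.58.1 (lmFit and eBayes, 1 mean per group) under R 4.3.3. A gene was called at a Benjamini-Hochberg adjusted p under 0.05 over all probes tested. A fold against a group that was not well above background is a lower bound, set by whichever is higher, the probe's own signal or the lowest signal that still counted as well above background there. Precision is limited by the number of arrays.

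The 10 genes, the lists and the rule for the genes named were chosen with earlier results of these data known. The rule names the 10 genes, Cd109, the called members of each list or, with fewer than 2, also the 2 brightest, and the 5 genes with the most similar pattern. Of these, 1 gene is not reported here. A few further genes were chosen after their values were seen. These are Sox10, Pax3, Irf4, Kit, Corin, Trpm1 and the extremes of a list (Tfec, Mfsd12, Slc24a4).

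Alternatives tried were centring on the median, quantile normalization, normexp background correction (offset 50, on the deposited medians), other filters on dim probes, only the arrays compared, the 6 arrays, the replicate number as a block, the methods' t-test, a trend and robust variance, the deposited value table, the mean of a gene's probes and leaving out each array.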

Additional observations from a re-analysis of the deposited data

How the results depend on the processing

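In each of the 5 comparisons, 0 of the 10 genes were called in limma under every alternative run, including the leave-one-out fits (0 to 0 genes), and no gene's log2 difference between genotypes after DMBA turned its sign (2.39 to 7.21 when an array was left out, adjusted p = 0.151 to 0.69, and 2.07 to 6.34 otherwise, adjusted p = 0.0612 to 0.324). The exception was the methods' t-test without adjustment, which called 10 genes between the genotypes after DMBA. Leaving out an array could not turn a sign, since the DMBA groups did not overlap for any of the 10 genes. With the replicate number as a block, 0 genes were called. Whether the numbers pair the arrays is not known. The correlations of same-numbered deviations ran from −0.08 to 0.73, and with 2 arrays per group they cannot settle it. In the added 6-array fit of genotype over both treatments, the 7 genes called became 0 with all 8 arrays, 0 with no filter on dim probes, 0 with an ordinary linear model and 0 to 2 when a further array was left out, but 10 with centring on the median, 10 with normexp and 10 with a trend and robust variance. The count of all probes called in that fit, 123, became 0 to 518. The causes were not tested. Genes near background (Gpr143, Oca2, Mc1r, Slc45a2) have only lower bounds on some arrays.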
